A study of Mus musculus with 2 samples.

Results

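The transcripts described here encode the nuclear subunits of the mitochondrial respiratory chain and of the ATP synthase. They were chosen by gene name, as every non-control probe whose name in the array files belongs to the Nduf, Sdh, Uqcr, Cox4 to Cox8, cytochrome c and Atp5 series. This gave 85 genes with 130 probes, out of 34740 genes with 55678 probes on the arrays. Of these, 82 genes and 125 probes were well above background on both arrays. The study compared pancreatic beta cells of wild-type mice (CSE-WT, its control) with beta cells of knockout mice (CSE-KO). CSE is cystathionine gamma-lyase, the product of Cth, which makes hydrogen sulfide from cysteine. Both groups were C57BL/6J mice, 6 months old, and both were fed a high-fat diet, so no group on a normal diet enters the comparison. Each genotype was represented by 1 single-colour array (2 arrays in all), and the sources used here state neither how many animals gave each RNA nor how the cells were isolated. The label names the genotype as a knockout only, and no tissue or promoter restriction is given.

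The respiratory chain passes electrons from NADH and succinate to oxygen through 4 membrane complexes and pumps protons out of the mitochondrial matrix, and the ATP synthase, often called complex V, lets the protons back in to make ATP. In beta cells this route couples glucose breakdown to insulin release, because the rise in ATP closes potassium channels at the cell surface. Hydrogen sulfide is known both to inhibit complex IV and, at low levels, to donate electrons to the chain. Most subunits are encoded in the nucleus and 13 in mitochondrial DNA.

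On the arrays, 75 of the 82 measured genes had a lower level in CSE-KO than in CSE-WT and 7 a higher one. The differences were small, with a median of -0.12 on the log2 scale, an interquartile range of -0.18 to -0.06, and extremes of -0.58 (Cox7a1) and 0.52 (Cox6b2). Of all 22139 measured genes, 51.4% were lower by any amount, and their median was -0.01. A level here is the log2 of the spot intensity minus the 75th percentile of the array, which was 519 units for CSE-WT and 540 for CSE-KO. Intensities below are given before that step, so equal intensities correspond to a difference of -0.06. With 1 array per genotype there is no replicate and no test. In bulk RNA, fewer cells of a type and less RNA per cell cannot be told apart.

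**Figure D1:**
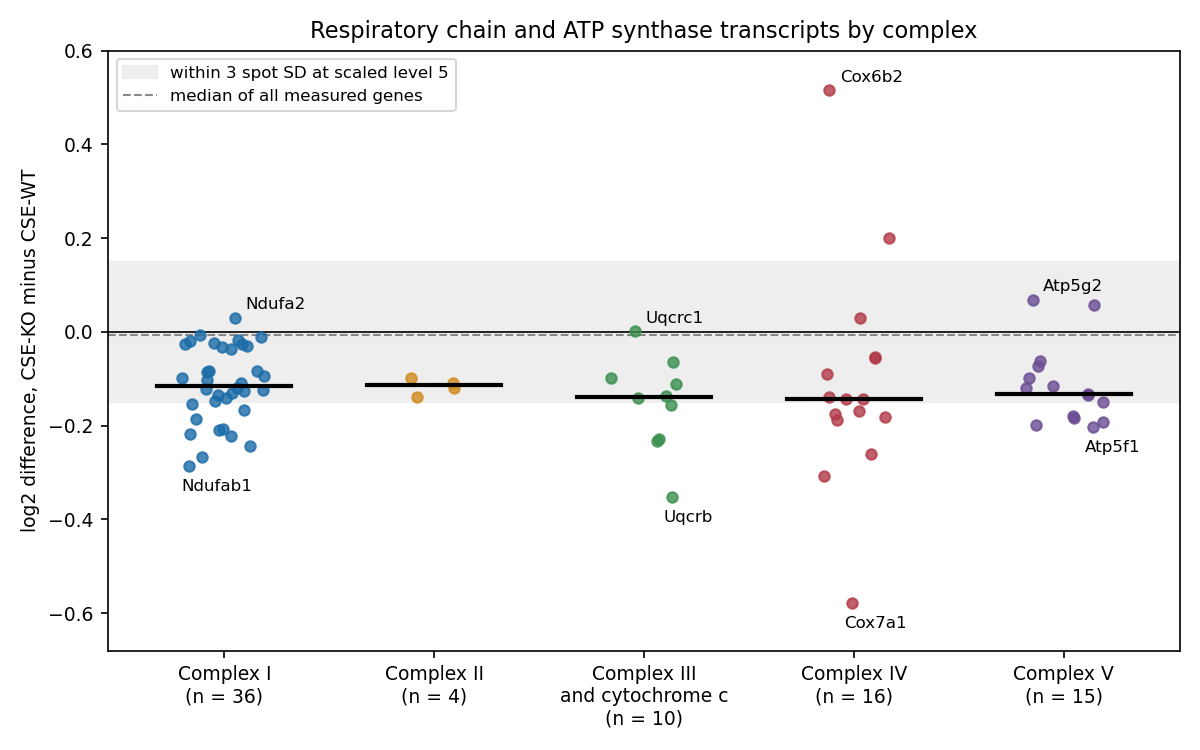
Each point is 1 measured gene, placed by complex, and the vertical axis is the log2 difference, CSE-KO minus CSE-WT. Black bars mark the median of each complex, which lies between -0.14 and -0.11, the grey band covers 3 spot SD at a scaled level of 5, and the dashed line is the median of all measured genes (-0.01).

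Size was judged in 2 ways. The first was the SD between spots of probes printed 10 times, which came to 0.05 for a difference between the arrays at the level of most members. Of the 82 genes, 27 were lower by more than 3 such spot SD, against a background of 10.1% of measured genes, and 1 (Cox6b2) was higher, against 8.78%. Uqcrc2, printed on 10 spots, was judged by a smaller spot SD of 0.016. The spot SD covers scatter between spots within an array. It does not cover differences between the arrays in labelling, hybridisation or scanning, nor animals or preparations. The other was a 2-fold difference, which no member reached and 1.61% of measured genes did. Scaling by cyclic loess reduced the number beyond 3 spot SD to 15 and the number lower by any amount to 64 (78.0%, from 91.5%), and spike-in scaling raised them to 47 and 78. Of all genes with a scaled level of at least 3, 10.5% were lower by more than 3 spot SD under cyclic loess and 24.8% under spike-in scaling. Each of the 27 genes stayed lower under every alternative that gave it a value. The alternatives reprocess the same 2 arrays and the 27 were chosen by size, so this is no independent check.

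The members are bright: 76 of the 82 had a scaled level of at least 3, which only 4338 of the measured genes reached. Among those bright genes 61.3% were lower in CSE-KO, 16.7% were lower by more than 3 spot SD, 9.45% were higher by more than 3 spot SD and 0.0922% passed 2-fold, and their median was -0.03. The 76 bright members had a median of -0.13, with 71 lower, 25 of them by more than 3 spot SD, and none higher by that amount. The difference of all genes drifted with level: non-member genes had a median of 0.02 below a scaled level of 0, -0.02 between 3 and 5, and -0.05 above 6. In those last 2 classes the members' medians were -0.14 (19 of 22 lower) and -0.12 (21 of 22 lower).

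**Figure D2:**
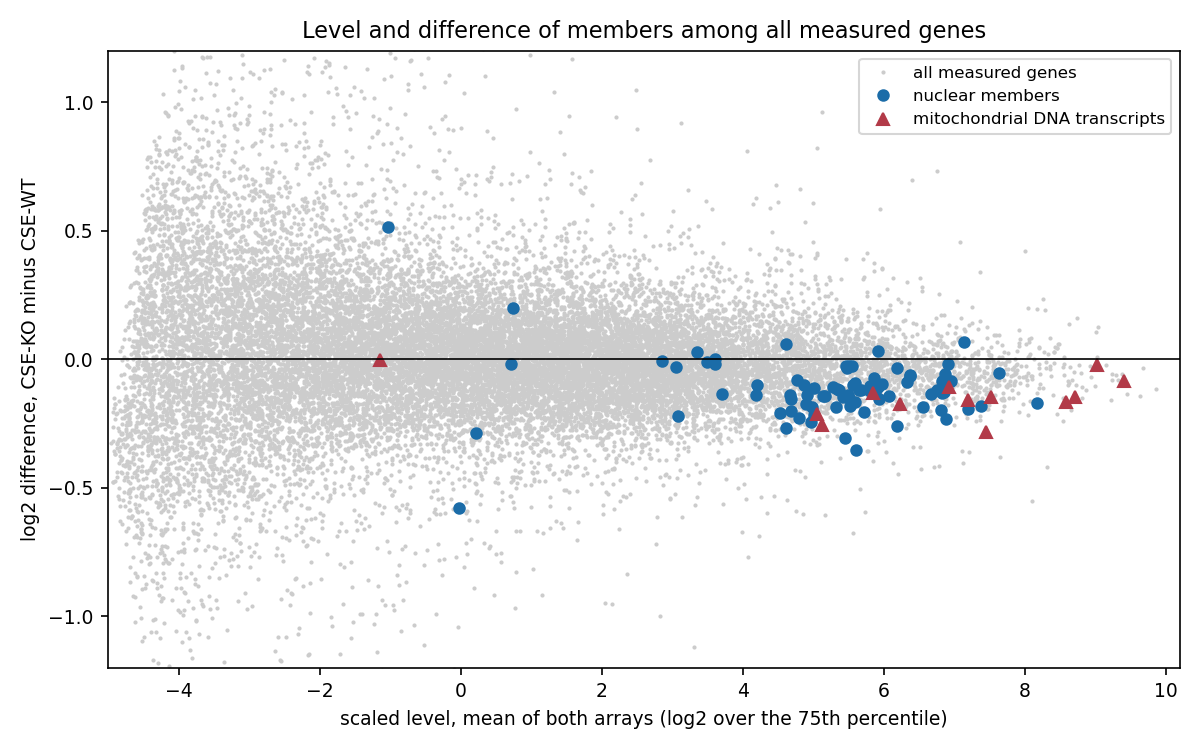
The horizontal axis is the scaled level (log2 over the 75th percentile, mean of both arrays) and the vertical axis the log2 difference, CSE-KO minus CSE-WT. Grey dots are all measured genes (230 lie outside the plotted range), blue circles the 82 members and red triangles the 13 transcripts of mitochondrial DNA, and both sets sit mostly on the bright side and below 0.

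The labels name the cells as beta cells, and the insulin gene Ins1 was abundant, at 503410 units in CSE-WT and 482701 in CSE-KO. RNA of other pancreatic cells was also present, since glucagon (Gcg) read 381292 and 360773 units and the acinar amylase gene Amy2a5 191897 and 149025. Of 6 acinar markers 3 were lower and 3 higher (median -0.03, summed intensity 406685 and 395663 units), from Amy2a5 at -0.42 to Ctrb1 at 0.46. Of 9 beta-cell markers 6 were lower in CSE-KO, with a median of -0.12. All 5 alpha-cell markers were lower (median -0.62, summed intensity 386346 and 364255 units), as were all 3 erythroid markers (median -0.54, 28575 and 21171 units). All 4 stellate markers were higher (median 0.91, 534 and 925 units), as were all 4 macrophage markers (median 0.21, 9695 and 11930 units) and the 3 of 4 duct markers that were measured (median 0.23, 770.1 and 1099 units summed over all 4). The part of these markers in the members' differences was not tested. The Cth probe did not rise well above background in either sample (12.8 and 3.68 units), so the arrays do not check the genotype.

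Nuclear respiratory genes are known for promoters that carry sites of NRF1, of the ETS factor GABP, of YY1 and of the estrogen-related receptors (ERR), through which the coactivator PGC-1alpha acts. As examples, 4 promoters are shown that carry such letters upstream of the start of transcription. A part of these sites in the members' differences was not tested. The promoters shown are those of Cox6a1 (chr5:115348959-115349208, minus strand), Atp5j (chr16:84834977-84835226, minus strand), Atp5g3 (chr2:73911327-73911576, minus strand) and Sdhd (chr9:50603850-50604099, minus strand), from RefSeq on GRCm38.p6. Each runs 5′ to 3′ over the 250 bases before the start, with matches to the searched motifs on either strand in capitals.
Cox6a1: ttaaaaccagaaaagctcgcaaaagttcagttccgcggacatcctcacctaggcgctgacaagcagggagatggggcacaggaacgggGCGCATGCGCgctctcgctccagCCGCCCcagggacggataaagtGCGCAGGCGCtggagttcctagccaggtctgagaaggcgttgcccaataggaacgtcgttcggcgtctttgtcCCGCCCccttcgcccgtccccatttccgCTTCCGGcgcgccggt
Atp5j: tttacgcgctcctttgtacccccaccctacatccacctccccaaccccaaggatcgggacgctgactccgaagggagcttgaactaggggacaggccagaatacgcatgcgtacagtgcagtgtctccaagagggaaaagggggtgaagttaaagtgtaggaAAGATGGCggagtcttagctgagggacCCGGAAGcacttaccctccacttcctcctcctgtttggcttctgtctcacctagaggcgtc
Atp5g3: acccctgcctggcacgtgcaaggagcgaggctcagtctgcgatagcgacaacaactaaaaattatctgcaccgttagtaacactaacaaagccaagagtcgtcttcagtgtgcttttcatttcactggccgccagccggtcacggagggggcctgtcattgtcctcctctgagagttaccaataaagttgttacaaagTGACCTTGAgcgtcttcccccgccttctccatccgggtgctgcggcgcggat
Sdhd: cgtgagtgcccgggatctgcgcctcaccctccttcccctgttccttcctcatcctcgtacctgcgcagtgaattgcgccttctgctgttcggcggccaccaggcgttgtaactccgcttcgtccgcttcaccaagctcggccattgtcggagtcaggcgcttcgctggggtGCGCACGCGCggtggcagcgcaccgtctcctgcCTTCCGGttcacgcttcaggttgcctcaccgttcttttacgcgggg

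The capitals in Cox6a1 are an exact NRF1 palindrome (GCGCA followed directly by TGCGC), a looser one (GCGCA, any base, then GCGC), ETS (CCGGAAG) and SP1 (GGGCGG) letters. Those in Atp5j are YY1 (AAGATGGC) and ETS letters, that in Atp5g3 is an ERR element (TCAAGGTCA) read on the other strand, and those in Sdhd are a looser NRF1 and an ETS match. All 4 genes were lower in CSE-KO, as were 75 of the 82 measured members. The differences were -0.17 for Cox6a1, -0.11 for Atp5j, -0.18 for Atp5g3 and -0.11 for Sdhd. Promoters were found for 69 of the 85 genes (74 promoters, 300 bases each with the first 50 bases of the transcript). The looser NRF1 motif, which includes the exact one, stood in 24.3% of them and in 4.60% of all 32851 promoters of the same length. ETS letters stood in 21.6% against 8.86%, YY1 in 13.5% against 2.75%, ERR in 2.70% against 0.423%, and the GC box of SP1 in 40.5% against 35.7%. The exact NRF1 palindrome stood in 6.76% against 0.971%.

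Genes with and without a motif were then set side by side. The 17 measured genes with the looser NRF1 motif had a median difference of -0.11, and the 50 without it -0.13. For ETS the medians were -0.11 with the motif (16 genes) and -0.13 without it (51 genes), and for YY1 they were -0.08 (10 genes) and -0.13 (57 genes). For SP1 they were -0.13 (28 genes) and -0.12 (39 genes), and for ERR -0.15 (2 genes) and -0.12 (65 genes). The 5 genes with the exact palindrome had a median of -0.01, with 3 of 5 lower. A match is a description of letters in this window and shows no binding.

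Complex I takes electrons from NADH to ubiquinone and is the largest of the complexes. Of its 36 nuclear genes measured, 35 were lower in CSE-KO, 10 by more than 3 spot SD, and the median was -0.11. The 7 core subunits, which hold the flavin and the iron-sulfur clusters, were all lower, with a median of -0.08. The 29 accessory subunits had a median of -0.12.

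Among the core subunits Ndufv2, which carries an iron-sulfur cluster in the NADH-oxidising arm, read 17639 units in CSE-WT and 15490 in CSE-KO, a difference of -0.24. It was the only core subunit beyond 3 spot SD. Ndufs1, Ndufs3, Ndufs7, Ndufs8 and Ndufv1 lay between -0.12 and -0.02. Those of Ndufs7 and Ndufs8 took the other sign under 6 and 3 of 13 alternatives with a value per gene.

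The accessory subunits are named in families, which are given here in turn. The 11 genes of the B and AB series, most of which belong to the membrane arm that pumps protons, were all lower, with a median of -0.15 and 6 beyond 3 spot SD (Ndufab1, Ndufb2, Ndufb3, Ndufb4, Ndufb5 and Ndufb6). The 12 genes of the A series, Ndufa4 not included, had a median of -0.08, with 11 lower and 1 beyond 3 spot SD. In that series Ndufa1, Ndufa3, Ndufa7, Ndufa9, Ndufa10 and Ndufa11 took the other sign under 1 to 8 of the 13 alternatives, as Ndufb7 of the B series did under 2. Both genes of the C series, Ndufc1 and Ndufc2, were lower by more than 3 spot SD (-0.17 and -0.21). The 4 accessory genes of the S and V series had a median of -0.07, which came to -0.01 at the least under the alternatives, and of which Ndufs6 and Ndufv3 changed sign under 6 and 4.

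Ndufab1 encodes the mitochondrial acyl carrier protein, which also serves fatty acid and lipoic acid synthesis. It read 668 units in CSE-WT and 570 in CSE-KO, a difference of -0.29 (spot SD 0.08). The probe was dim, and the gene has no other. Ndufb5, a membrane-arm subunit, read 13942 and 12039 units on its brightest probe (-0.27). Its other probes were much dimmer and went both ways, with 2385 and 2272 units (-0.13) on the second and 95.8 and 118 units (0.25) on the next. Another Ndufb5 probe was well above background in CSE-KO only, at 25.7 units against 14.2. Against the lowest signal called above background in CSE-WT, it was at least 1.40-fold higher. That rests on 1 spot, and the difference of the probe (0.80, spot SD 0.42) was within 3 spot SD. Ndufa8, an accessory subunit on the intermembrane-space side, read 4755 and 4237 units (-0.22).

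The only complex I gene with a higher value in CSE-KO was Ndufa2, at 31161 and 33080 units (0.03), less than its spot SD of 0.05, and lower under 2 of the 13 alternatives. Ndufa3 had a main probe at 23738 and 24242 units (-0.03), a second at 10487 and 10958 (0.01) and a dim one at 63.5 and 45.8 (-0.52). Ndufb11 had 2 bright probes that were lower by like amounts, with 62985 and 59958 units (-0.13) and 55053 and 52488 units (-0.12). Its dim probe, at 338 and 367 units, was higher by 0.06, within 1 spot SD. In these genes the bright probes were near or below 0, and the dim ones varied in sign.

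Complex II oxidises succinate, an intermediate of the citric acid cycle, and is the only complex with no subunit from mitochondrial DNA. Its 4 genes were all lower in CSE-KO by nearly the same amount, with a median of -0.11, and none passed 3 spot SD. The flavoprotein Sdha read 15707 and 15247 units (-0.10). The iron-sulfur subunit Sdhb read 22251 and 21289 units (-0.12), and its second probe gave -0.15. Of the membrane anchors, Sdhd read 20990 and 20236 units (-0.11).

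The other anchor, Sdhc, was split by probe. A probe with 25% of G and C read 9952 and 9394 units (-0.14), and a probe with 55% read 8852 and 9261 (0.01). The median of complex II shrank to -0.03 once the level and the base composition of the probes were taken out.

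Complex III passes electrons from ubiquinol to cytochrome c. With cytochrome c it gave 10 genes, of which 9 were lower, 5 of them by more than 3 spot SD, and the median was -0.14. Those 5 include Uqcrc2 and Uqcrb, whose limits are given below. The redox subunits were both beyond 3 spot SD: the Rieske iron-sulfur protein Uqcrfs1 read 15629 and 13864 units (-0.23), and cytochrome c1 (Cyc1) read 14153 and 13206 units (-0.16). Of the small subunits, Uqcrq read 66241 and 58575 units (-0.23), and its second probe gave -0.24. The other small subunits, Uqcr10, Uqcr11 and Uqcrh, lay between -0.14 and -0.06.

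The core proteins did not differ together. Uqcrc1 read 6308 and 6567 units, a difference of 0.002. Uqcrc2 was printed on 10 spots, which read 17104 to 17654 units in CSE-WT (10 spots used, SD 0.01 on the log2 scale) and 16426 to 16997 units in CSE-KO (7 spots used, SD 0.02). The intensities of the spots used did not overlap between the 2 arrays, and the difference was -0.11. Outlier spots had been left out first, and repeat spots on 1 array are not replicates of a genotype. The last of the 10 spots lay in a patch of dim spots. This is the only member measured on more than 1 spot per probe. Its spot SD was taken over 10 spots, although 7 were used in CSE-KO, and came to 0.016. By the 0.05 of a single spot, Uqcrc2 would not have been beyond 3 spot SD.

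Uqcrb, known as the ubiquinone-binding protein, had the largest difference in complex III, at 28695 and 23377 units (-0.35), on a probe that lay in a patch of dim spots. Its other 2 probes read 17526 and 16883 units (-0.11) and 13743 and 12959 units (-0.14). The probes overlap on the gene (chr13:67001654-67001713, chr13:67001665-67001724 and chr13:67001691-67001750 on mm9, minus strand). They are shown over their shared 23 bases to make plain that the same transcript stretch gave unlike values. Capitals mark the base that differs from the second probe, with positions counted from 1 at the 5′ end of the stretch (A11G).
Uqcrb probe 1: aggagagagaagagtgggcaaag
Uqcrb probe 2: aggagagagaagagtgggcaaag
Uqcrb probe 3: aggagagagaGgagtgggcaaag

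Probe 1 is the one in the patch and gave -0.35, probe 2 gave -0.11 and probe 3 gave -0.14. Without probes in patches the value of Uqcrb was -0.11, no longer beyond 3 spot SD. Cytochrome c (Cycs), the soluble carrier between complexes III and IV, read 19170 and 18065 units (-0.14) on its brightest probe and 8107 and 7106 units (-0.25) on the second. Its dimmest probe, at 241 and 26.6 units (-3.23), also lay in a patch of dim spots, and that value stands on 1 spot. The testis form Cyct was near background on both arrays, at 20.9 and 20.7 units.

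Complex IV, cytochrome c oxidase, reduces oxygen to water, and is the complex with the most tissue-specific subunit forms. Of its 19 genes 16 were measured, 13 of them lower and 3 higher, with a median of -0.14. The widely expressed forms gave 10 of 11 lower, 5 by more than 3 spot SD, with a median of -0.14. Ndufa4, first assigned to complex I, is counted here. Cox5a, a matrix-side subunit that binds thyroid hormone metabolites, differed most among them, with 25149 and 21122 units (-0.31). Its partner Cox5b read 25451 and 23321 units (-0.18). Cox7c (-0.19), Cox6c (-0.14) and Ndufa4 (-0.14), 3 small subunits, were lower too.

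For subunits 4 and 6b, the form known from particular tissues was the dimmer of the pair and had the more positive difference. Cox4i1, the general form of subunit 4, read 43173 and 42187 units (-0.09), and Cox4i2, the lung form that responds to low oxygen, 807 and 964 units (0.20, spot SD 0.07). Cox6b1 read 5235 and 5556 units (0.03), and the testis form Cox6b2 211 and 314 units (0.52, spot SD 0.11). Cox6b2 was the only member higher by more than 3 spot SD, and under the other settings from 0 to 3 members were.

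The heart and muscle forms were lower. Cox6a1, the general form of subunit 6a, read 159794 and 147755 units (-0.17), and the muscle form Cox6a2 41371 and 35901 units (-0.26). Cox7a2 read 19688 and 18532 units (-0.14), and the muscle form Cox7a1 625 and 435 units (-0.58, spot SD 0.08). The Cox7a1 difference was the largest of any measured member on its main probe. Of 5 striated muscle markers, Ckm (5.34 and 3.97 units), Myh4 (3.64 and 2.97) and Myl1 (7.68 and 3.34) were not above background on either array, Tnnt3 was above it in CSE-KO only (12.7 and 17.1), and Acta1 read 155 and 135 units. The Cox7a1 value rests on 1 probe, shown here as the array files give it because it carries the largest difference. It maps to chr7:30970337-30970948 on mm9, plus strand, a span of 612 bases for 60 bases of probe.
Cox7a1: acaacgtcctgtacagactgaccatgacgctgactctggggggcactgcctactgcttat

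Subunit 7b read 16486 and 15171 units (Cox7b, -0.18), and its testis form Cox7b2 was above background in CSE-WT only, at 22.8 units against 9.94. Against the lowest signal called above background in CSE-KO, Cox7b2 was at least 1.63-fold higher in CSE-WT. That rests on 1 spot, and its difference (-1.25, spot SD 0.50) was within 3 spot SD. Subunit 8 was present as Cox8a, at 105418 and 105654 units (-0.05), a value that changed sign under 2 of 13 alternatives. The muscle form Cox8b (3.69 and 3.12 units) and the testis form Cox8c (4.05 and 3.24 units) were not well above background on either array. Of the muscle forms, then, the arrays measured Cox6a2 and Cox7a1 and not Cox8b.

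Some genes caught by the naming rule are not subunits. Cox7a2l, a factor that joins complexes III and IV into supercomplexes, had probes at 61841 and 61829 units (-0.06), 39130 and 40219 (-0.02) and 17398 and 18572 (0.04). Cox4nb is now called Emc8 and only neighbours Cox4i1, and it read 859 and 881 units (-0.02). The difference of Cox7a2l was 1.12 times its spot SD, and that of Cox4nb 0.273 times. Leaving out these genes and the tissue forms gave 71 of 76 genes lower, with a median of -0.13.

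Complex V makes ATP in its F1 head, which turns on a ring of c subunits and is held by a peripheral stalk. Of its 15 genes 13 were lower, 5 by more than 3 spot SD, and the median was -0.13. In F1, the alpha subunit Atp5a1 read 62580 and 56680 units (-0.20) and the beta subunit Atp5b, the catalytic one, 92026 and 84419 units (-0.18). The delta subunit Atp5d went the other way, at 12406 and 13426 units (0.06), within 2 spot SD. The 4 genes of the stalk were all lower (median -0.12), and Atp5f1, the b subunit now called Atp5pb, was the lowest at 14258 and 12882 units (-0.20). The rest of F1 and the stalk, Atp5c1, Atp5e, Atp5h, Atp5j and Atp5o, lay between -0.13 and -0.07.

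The 3 genes of the c ring encode the same mature protein behind different import sequences, and they did not differ alike. Atp5g3 read 51996 and 47574 units (-0.18). Atp5g1 read 61413 and 58269 units (-0.13) on its bright probe and 3477 and 4515 units (0.32) on a dimmer one. Atp5g2 was higher on both of its probes, at 71619 and 78075 units (0.07) and 58431 and 62455 units (0.04), each within 2 spot SD. The median of the c ring, -0.13, took the other sign when the probes of a gene were averaged (0.05).

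The small Fo subunits Atp5j2, Atp5k and Atp5l, which help to pair ATP synthases along the inner membrane, were all lower (median -0.15), except that Atp5j2 came to 0.0008 under 1 of the 13 alternatives. Atp5l had 6 probes, between -0.20 and -0.07. Of these, 4 share a stretch of 30 bases that differs by 1 or 2 bases between probes, and it is shown because probes that are so alike gave a measure of how well a member's value repeats. Capitals mark bases that differ from the brightest probe (G15A in probe b, C14A and G16A in probe c, T20C in probe d), counted from the 5′ end of the stretch.
Atp5l probe a: ggaccatgtgtaacgggactgctatctgaa
Atp5l probe b: ggaccatgtgtaacAggactgctatctgaa
Atp5l probe c: ggaccatgtgtaaAgAgactgctatctgaa
Atp5l probe d: ggaccatgtgtaacgggacCgctatctgaa

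Probe a read 81197 and 73826 units (-0.19), probe b 73239 and 66387 (-0.20), probe c 58776 and 55065 (-0.15) and probe d 47634 and 44849 (-0.14). All were lower in CSE-KO, and they spread over 0.05 log2 units, about the spot SD. Over the 29 members with at least 2 measured probes, all probes were lower for 21, all were higher for Atp5g2, and the signs differed for 7. For the 26 with at least 2 bright probes (scaled level of at least 3), the median SD among probes of 1 gene was 0.03, against 0.04 over 518 genes of the arrays.

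**Figure D3:**
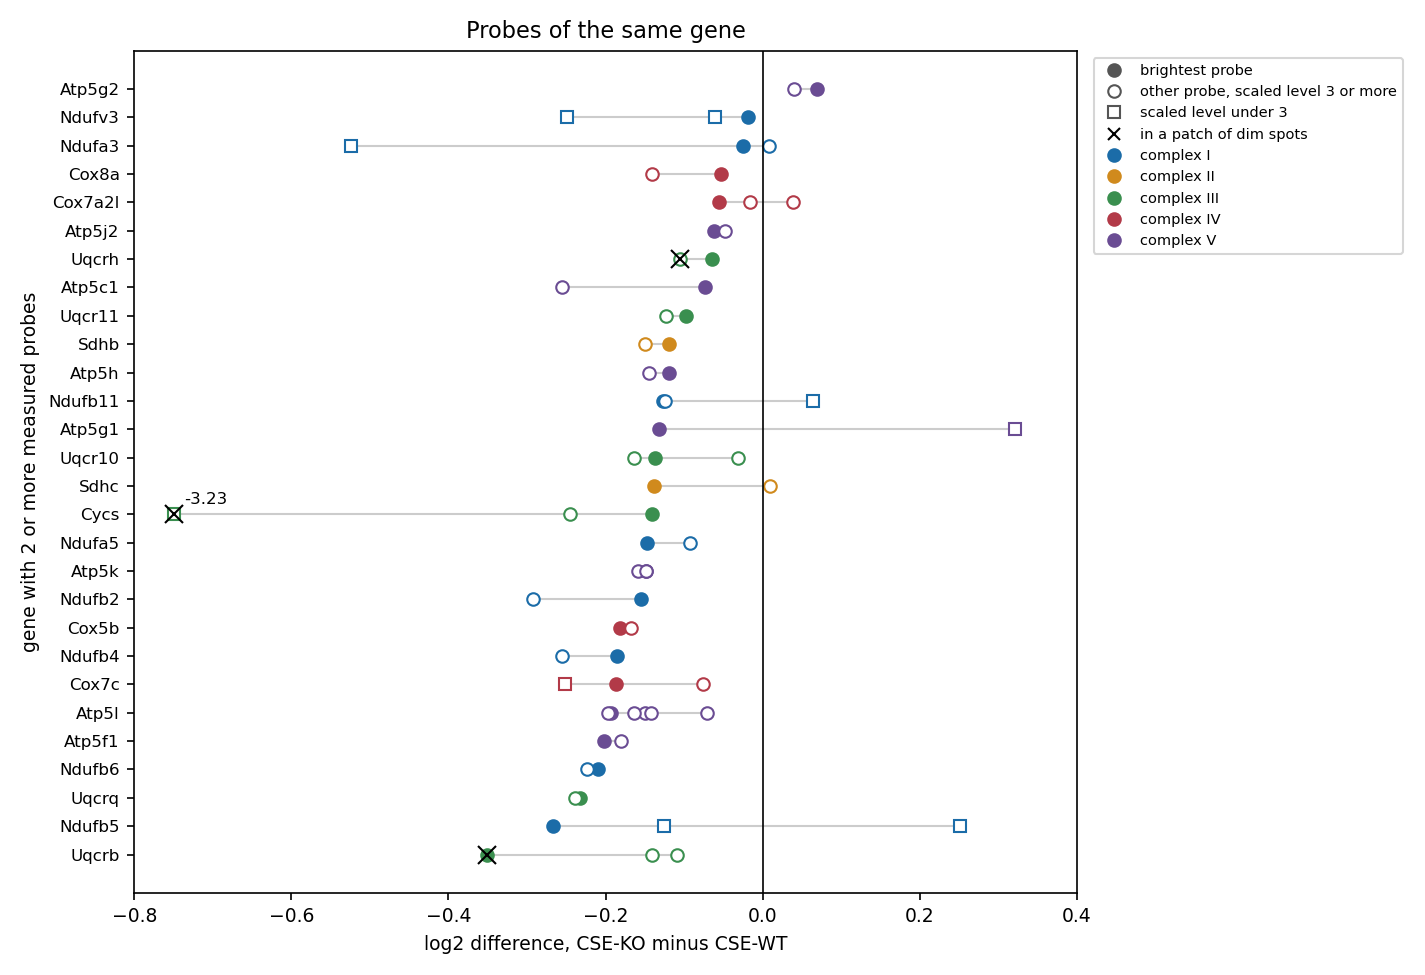
Each row is a reported member with at least 2 measured probes, each symbol a probe, and the horizontal axis the log2 difference, CSE-KO minus CSE-WT. Filled symbols are the brightest probe, squares are probes below a scaled level of 3, and crosses mark probes in patches of dim spots (Cycs, Uqcrb and Uqcrh). The Cycs probe at -3.23 is drawn at the left edge of the axis.

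The differences also followed the base composition of the probes. Over the 110 member probes with a scaled level of at least 3, the share of G and C in the probe went with the difference (Pearson r = 0.43, Spearman rho = 0.47). Over 4884 other probes of that level r was 0.19 and rho 0.27. These are correlations over probes of the same 2 arrays, and probes are not replicates. Within each class of composition the members were lower than the other probes. Up to 35% of G and C, the medians were -0.18 for members (28 of 28 lower) and -0.09 for other probes, and above 50% they were -0.05 (14 of 17 lower) and 0.02. With the median of probes of like level and composition subtracted, 71 of 82 genes were lower, 12 by more than 3 spot SD, and the median was -0.08. Under this correction the 12 were 14.6% of members, against 9.82% of all genes with a scaled level of at least 3. Of those genes, 49.4% were lower by any amount. That correction was chosen after seeing the data.

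**Figure D4:**
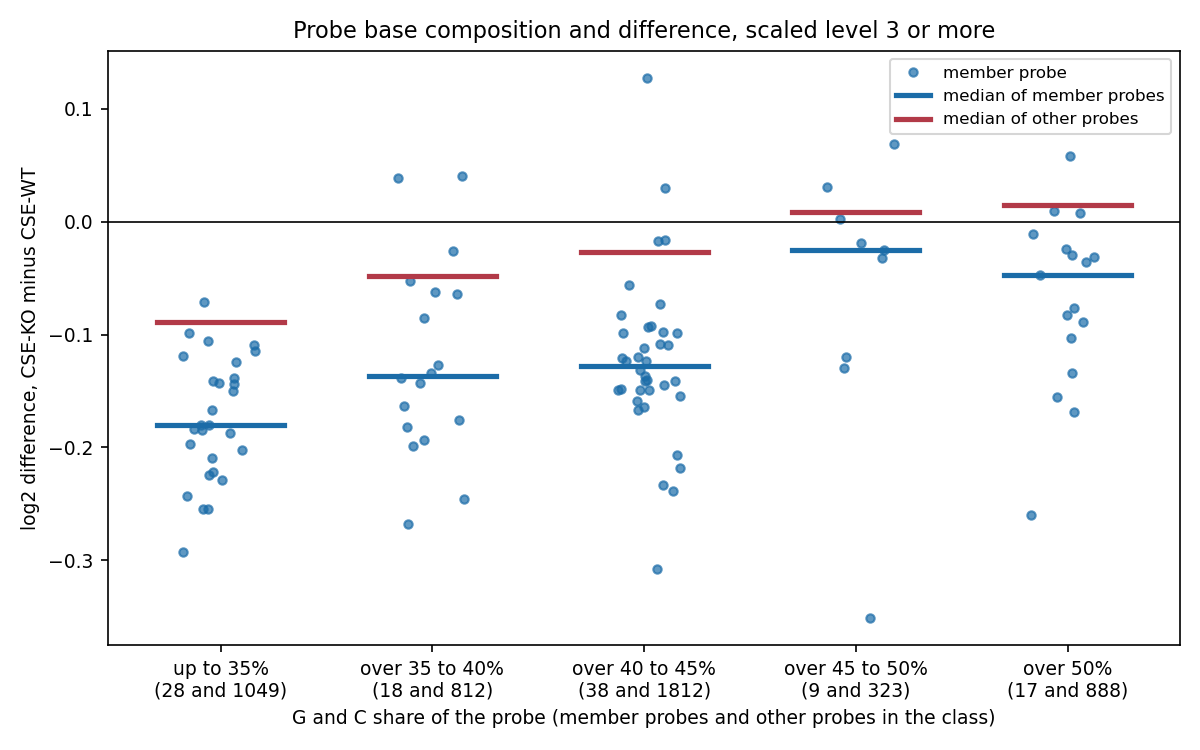
Member probes with a scaled level of at least 3 are placed by the share of G and C in the probe, with the log2 difference, CSE-KO minus CSE-WT, on the vertical axis. Blue bars are medians of member probes and red bars medians of other probes in the class, and the blue bar is below the red one in every class, by 0.03 to 0.10.

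The subunits encoded by mitochondrial DNA, which the naming rule did not take, were lower as well. All 13 had a lower value in CSE-KO, 6 by more than 3 spot SD, and the median was -0.15. Most are very bright, and 71.5% of genes outside the members with a scaled level above 6 were lower. Of all genes with a scaled level of at least 3, 16.7% were lower by more than 3 spot SD. The complex I subunits ND3 (100043 and 85421 units, -0.28), ND1 (19876 and 17300 units, -0.26) and ND5 (18601 and 16694 units, -0.21) differed most. The smallest differences were those of COX2 (272450 and 278723 units, -0.02) and ND6 (236 and 245 units, -0.002), the only protein gene on the other strand of the molecule. Their median shrank to -0.07 with level and base composition taken out.

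Other mitochondrial gene lists were lower by similar or smaller amounts. As background, 51.4% of all measured genes were lower by any amount and 10.1% by more than 3 spot SD. Of those with a scaled level of at least 3, the shares were 61.3% and 16.7%. Of the assembly factors, which build the complexes, 34 of 43 measured genes were lower (median -0.09, 8 beyond 3 spot SD), and the copper chaperones Cox17 (121 and 94.7 units, -0.41, spot SD 0.16) and Sco1 (211 and 179 units, -0.29, spot SD 0.12) had the largest differences, within 3 spot SD each. Of the citric acid cycle and pyruvate dehydrogenase genes 15 of 19 were lower (median -0.10), with the fumarase gene Fh1 at 18592 and 12734 units (-0.60), and Dlat, a pyruvate dehydrogenase subunit, at 1301 and 1117 units (-0.28). Import and carrier genes were lower in 28 of 33 cases (median -0.10), with Timm8a1 at -0.33 and the channel gene Vdac3 at -0.27. Mitochondrial ribosomal protein genes were lower in 66 of 78 cases (median -0.08), with Mrpl3 at -0.30 and Mrpl53 at -0.26. Cytosolic ribosomal protein genes, whose products do not enter mitochondria, were lower in 70 of 79 cases by a median of -0.07, which cyclic loess reduced to -0.01. Rpl22l1 (-0.22) and Rps21 (-0.21) differed most among them.

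**Figure D5:**
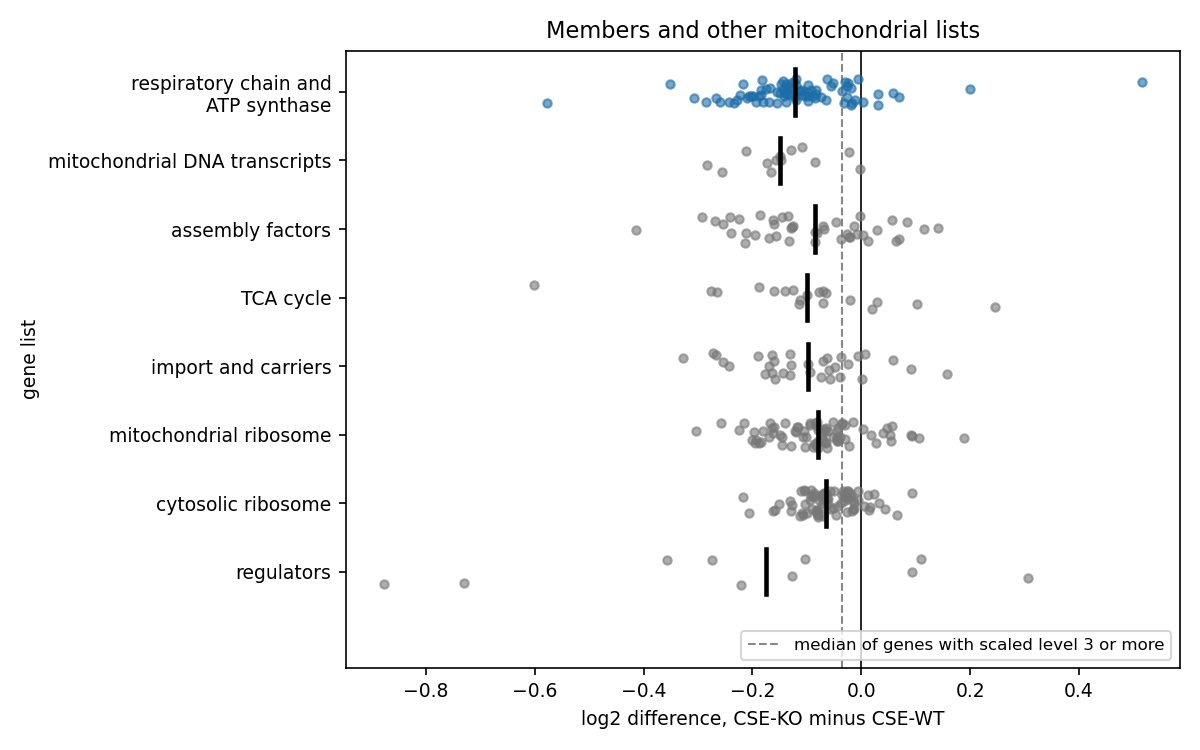
Each point is a measured gene, rows are gene lists, and the horizontal axis is the log2 difference, CSE-KO minus CSE-WT. Black bars are list medians, from -0.17 (regulators) to -0.07 (cytosolic ribosome), with the 82 respiratory chain and ATP synthase genes at -0.12, and the dashed line is the median of genes with a scaled level of at least 3 (-0.03).

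Transcription factors and coactivators that act on respiratory genes were examined as a list of 10, of which 7 were lower (median -0.17). The coactivator Ppargc1a (PGC-1alpha) read 384 and 218 units (-0.88, spot SD 0.10), and its relative Ppargc1b 58.9 and 36.9 units (-0.73, spot SD 0.27). The nuclear receptor Esrra, a partner of both, read 5487 and 4452 units (-0.36, spot SD 0.05), and Yy1 1664 and 1430 units (-0.27, spot SD 0.06). Nrf1 read 572 and 510 units (-0.22, spot SD 0.08), Gabpa 606 and 586 units (-0.10, spot SD 0.08) and Tfb2m, a factor for mitochondrial transcription, 1181 and 1124 units (-0.13, spot SD 0.07).

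In this list Ppargc1a, Esrra and Yy1 were beyond 3 spot SD. Of all measured genes, 51.4% were lower by any amount and 10.1% by more than 3 spot SD. The 3 genes that were higher were Tfam, which packages and transcribes mitochondrial DNA, at 2471 and 2771 units (0.11, spot SD 0.06), Ppara at 849 and 941 units (0.09) and Pprc1 at 134 and 172 units (0.31, spot SD 0.14). None of these 3 passed 3 spot SD. A part of these factors in the members' values was not tested.

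Of 5 measured genes that bypass, replace or limit parts of the chain, 4 were higher. Of all 22139 measured genes, 10770 were higher by any amount and 8.78% by more than 3 spot SD. Ucp2, an inner-membrane carrier named for uncoupling, read 3419 and 4098 units (0.21), Ucp3 3834 and 4485 (0.17), and Ndufa4l2, a relative of Ndufa4 induced by low oxygen, 724 and 924 (0.30), each beyond 3 spot SD. The ATP synthase inhibitor Atpif1 read 52099 and 54249 units, a difference of 0.003. The remaining gene, the testis form Cyct, was lower (-0.07) and near background on both arrays. Txnip, a glucose-responsive inhibitor of thioredoxin, read 12997 and 26280 units (0.96).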

How the data were processed

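Each of the 2 arrays held 62976 spots, 59305 of them gene spots. Per the file headers, the authors quantified them with Agilent Feature Extraction 10.7.1.1 (the submitters' processing notes name 9.5.1.1), and the deposited intensity used here is its detrended processed signal. The authors also deposited a table of linear intensities scaled between arrays by an unstated method, used as an alternative. Here outlier spots were left out, spots of a probe averaged on the log2 scale, and the 75th percentile subtracted per array. A probe counted as measured when well above background on both arrays, and a gene took its brightest measured probe. No spot was saturated. The number of arrays limits the precision, and all values describe these 2 samples. Probe coordinates are those of the array design (mm9). A spot, itself bright or dim, lay in a patch when it had at least 4 dim neighbours within 5 by 5 spots. Dim meant under 50 units on at least 1 array. The median absolute log2 ratio of those neighbours between the arrays also had to reach 1.

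The members and lists were chosen with earlier results of these data known. Full values were given for the 4 largest differences per complex, members that were higher, split by probe or not measured, isoform pairs, the regulators, and the 2 largest differences per other list. Some genes are not reported by name here. Alternatives were other scalings, normexp background correction (offset 50), other probe rules and filters. Python 3.11.15 with pandas 2.3.3 and numpy 2.4.6, and R 4.3.3 with limma 3.58.1, were used. A simulation added spot noise and a set shift of the members to finished gene levels. It ran no outlier removal, scaling, background filter or choice of probe, so it does not test those steps.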

Additional observations from a re-analysis of the deposited data

How the results depend on the processing

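No paired analysis was possible because each genotype had 1 array, and for the same reason no replicate could be left out. The median of all members kept its sign under all 16 alternatives, from -0.16 (spike-in scaling) to -0.07 (cyclic loess), and so did the medians of the 5 complexes. Of the 75 genes that were lower, 58 stayed lower wherever the 13 alternatives with a value per gene gave them one. The 27 beyond 3 spot SD were all among these 58. Uqcrc2, which is among the 27, had no value without probes in patches, because its only probe lay in a patch. Of 1363 single-gene values, 1159 moved by less than 1 spot SD.

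The number of members higher was 17 with median scaling, 15 with quantile normalization, 18 with cyclic loess, 4 with spike-in scaling, 13 and 15 with normexp followed by the 75th percentile or by quantiles, 16 in the authors' deposited table, 15 with each probe counted and 11 with level and probe composition removed (added after seeing the data). Members lower by more than 3 spot SD numbered 15 with cyclic loess, 47 with spike-in scaling, 41 with each probe counted and 12 with level and composition removed. The shares lower by that much among all genes, or probes, with a scaled level of at least 3 were 10.5%, 24.8%, 16.7% and 9.82% in the same order. Members higher by that much numbered 2 with median scaling, 0 with the percentile of probes above background, 2 and 3 with the 2 normexp settings, 0 above the median level, 2 with each probe counted and 0 for standard subunits only. With no filter on dim probes, with probes averaged or with each probe counted, 1 member passed 2-fold (Cox7b2 in the first case, Cycs in the others).

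Medians that moved by more than 1 spot SD were those of complex I (-0.064) and complex V (-0.074) with cyclic loess, and of complexes II (-0.034), III (-0.085) and IV (-0.084) with level and composition removed. The transcripts of mitochondrial DNA came to -0.096 with quantile normalization, -0.085 with cyclic loess, -0.095 in the authors' deposited table and -0.066 with level and composition removed. The cytosolic ribosome came to -0.0084 with cyclic loess, -0.013 with normexp and quantiles and -0.015 with level and composition removed, the citric acid cycle to -0.042 with the last, and the regulators to -0.11 and -0.12 with the 2 normexp settings, -0.12 above the median level and -0.10 with level and composition removed.

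Some small subsets changed sign. The tissue forms of complex IV (4 measured genes, -0.03) came to 0.0045 with median scaling and to 0.048 and 0.059 with the 2 normexp settings. With no filter on dim probes, which adds the 3 forms not above background on both arrays, they came to -0.30. The 2 core proteins of complex III (-0.05) came to 0.013 with normexp and quantiles and to 0.0023 without probes in patches, which leaves Uqcrc1 alone. The c ring (-0.13) came to 0.055 with probes averaged and 0.040 with each probe counted. For the other changes the cause was not tested. Dim probes limit what can be said of tissue forms: the spot SD was 0.11 for Cox6b2 against 0.05 for most members.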
